A study of Homo sapiens with 11 samples.

Results

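The genes described here make the route by which a secretory protein enters the endoplasmic reticulum (ER) and leaves it again. The list of 39 genes was matched by symbol. It holds 6 subunits of the signal recognition particle (SRP), 2 of the SRP receptor, 7 genes of the translocon, 4 of the translocon-associated protein (TRAP) complex, 5 of the signal peptidase, 11 of the COPII coat, the ER SNARE SEC22B and 3 KDEL receptors. All 39 were among the 14458 genes of the knockdown table, where SRPR stands under its current symbol SRPRA. Of the 39, 36 were among the 11062 genes of the overexpression table, and SEC61A2, SEC24C and KDELR3 were not analysed there. Every member found in a table was also tested in it, 39 of 10900 genes for knockdown and 36 of 10279 for overexpression.

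The 11 RNA-seq libraries came from ARP1, a human multiple myeloma cell line labelled as IgA kappa. PHF19 belongs to the accessory subunits of Polycomb repressive complex 2, which methylates histone H3 and represses genes. The groups were PHF19 shRNA (n = 3) with its scramble control (n = 3), and PHF19 overexpression from a lentiviral PCDH plasmid (n = 2) with PCDH empty vector (n = 3). Virus for the overexpression and empty vector cells was packaged in HEK293T cells, and the series' design text says that cells overexpressing PHF19 were sorted. The same treatment text is attached to the shRNA and scramble samples, whose genotype tag also repeats the overexpression wording. Those groups were therefore read from the titles, and how the shRNA was delivered, how many hairpins were used and whether replicates came from separate cultures is not stated in the labels. P-values then measure the spread between these libraries, which may be technical. The descriptions of the overexpression samples end in F and those of the empty vector samples in S, with no meaning given, so an effect of what the letters stand for cannot be told apart from an effect of the vector.

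During synthesis of a secretory protein, SRP binds the signal peptide as it leaves the ribosome and docks at the SRP receptor on the ER membrane, where the chain enters the SEC61 channel. Signal peptidase then removes the signal peptide, the TRAP complex sits beside the channel and helps some chains to enter, and folded cargo leaves in vesicles that the COPII coat forms. KDEL receptors return escaped ER chaperones from the Golgi. Plasma cells and the myeloma cells derived from them depend on this route because they secrete immunoglobulin, and the transcription factor XBP1 raises many of its genes when plasma cells form.

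XBP1 and ATF6, transcription factors of the unfolded protein response, are known to bind the letters TGACGTGG, and a search of both strands of the members' promoters shows which of them carry this run. RefSeq promoters (GRCh38.p14), each covering 250 bases before to 50 after a start, were given for 34 member genes, as 48 promoters. SRPR, TRAM1, SPCS1, SEC24D and KDELR2 had no entry and were not searched. The run occurred in 8 of the 48 member promoters (16.7%), against 256 of all 35116 promoters (0.729%). The longer ER stress element (ERSE) occurred in 0 member promoters and in 0.0769% of all, and its variant ERSE-II in 0 member promoters and 0.0541% of all. The amino acid response run TTGCATCA, bound by ATF4 complexes, occurred in 0 member promoters and 0.866% of all. A match is a description of letters and not of binding. The 8 matches are shown with 10 bases on either side, on the strand of the gene. Capitals mark the match, which reads CCACGTCA where TGACGTGG lies on the opposite strand:
SSR3 (chr3:156554149-156554176, minus strand): ctgataacagCCACGTCAgcaaggaaac
SEC62 (chr3:169966780-169966807, plus strand): cctcctcgctCCACGTCAgagggaaccg
SRP19 (chr5:112861165-112861192, plus strand): agtcttcatgCCACGTCAgagactagag
SEC24A (chr5:134648596-134648623, plus strand): tgagagtcggTGACGTGGcggcgaggcc
SEC16A (chr9:136484708-136484735, minus strand): ggccctggtgCCACGTCAgccggactga
SEC23A (chr14:39103222-39103249, minus strand): cccctcctctTGACGTGGcagaggcggc
KDELR3 (chr22:38468040-38468067, plus strand): gccgccctggCCACGTCAccgcccggcc
SSR4 (chrX:153794529-153794556, plus strand): cagggaggggCCACGTCAgtgctgccag

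The carriers came from 5 of the 8 classes: the SRP subunit SRP19, the channel partner SEC62, the TRAP subunits SSR3 and SSR4, the COPII genes SEC16A, SEC23A and SEC24A, and the KDEL receptor KDELR3. In the comparison of shRNA with scramble, their log2 fold changes ran from -0.30 for SEC24A to 0.32 for SSR4. For 6 of the 8 the value lay below 0, and for SEC16A and SSR4 above 0. Among all 39 members 76.9% lay below 0, and among all genes tested 45.6%. Whole promoters are given for SRPRB, SSR1 and SSR4, the members with the smallest p-values for knockdown. Capitals again mark a match, which is present only in that of SSR4 among these 3, and the SSR4 window shown is the second of its 2 annotated starts because the first holds no match:
SRPRB (chr3:133805565-133805864, plus strand): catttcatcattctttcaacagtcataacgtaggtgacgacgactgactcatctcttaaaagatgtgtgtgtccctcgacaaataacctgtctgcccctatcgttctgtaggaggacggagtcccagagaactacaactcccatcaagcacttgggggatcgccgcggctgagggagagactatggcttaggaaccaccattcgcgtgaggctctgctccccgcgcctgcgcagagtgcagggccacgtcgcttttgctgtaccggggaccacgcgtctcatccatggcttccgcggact
SSR1 (chr6:7313150-7313449, minus strand): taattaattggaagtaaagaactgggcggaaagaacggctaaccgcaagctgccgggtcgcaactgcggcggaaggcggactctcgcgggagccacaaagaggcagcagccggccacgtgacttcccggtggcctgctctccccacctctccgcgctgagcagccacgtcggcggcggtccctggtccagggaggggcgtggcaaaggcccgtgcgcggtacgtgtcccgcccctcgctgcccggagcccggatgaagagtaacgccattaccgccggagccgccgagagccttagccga
SSR4 (chrX:153794418-153794717, plus strand): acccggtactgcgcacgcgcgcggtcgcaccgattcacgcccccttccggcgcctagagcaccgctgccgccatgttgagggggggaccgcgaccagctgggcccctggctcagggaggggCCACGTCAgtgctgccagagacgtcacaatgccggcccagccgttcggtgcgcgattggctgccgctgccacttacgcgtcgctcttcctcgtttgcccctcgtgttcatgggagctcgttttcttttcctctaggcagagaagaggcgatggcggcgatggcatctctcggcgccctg

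Levels are given as deposited, on an abundance scale of FPKM type that is normalised for gene length and depth, so members can be set side by side within a table. The tables hold no counts, so the depth behind each value is unknown. Summed over the genes listed, abundance came to between 470294 and 526068 per library in the knockdown table. In the overexpression table it came to 498485 and 502349 in overexpression libraries, against 426112, 426016 and 425155 in empty vector libraries. Libraries correlated at 0.953 to 0.993 across genes in the knockdown table (Pearson, log2 values) and at 0.760 to 0.831 in the overexpression table. shRNA replicate 1 correlated with shRNA replicates 2 and 3 at 0.971 and 0.973. Those replicates correlated with scramble replicates 2 and 3 at 0.981 to 0.984. Empty vector libraries correlated with each other at 0.760 to 0.817, and with overexpression libraries at 0.776 to 0.798. PHF19 itself stood at 75.2, 103 and 108 in shRNA libraries, against 113, 152 and 123 in scramble libraries, with no overlap. At -0.44 ± 0.17 (SE) its log2 fold change did not pass (limma, adjusted p = 0.147), and with the replicate number as a block it did (limma, adjusted p = 0.0445). With overexpression PHF19 stood at 227 and 213, against 111, 119 and 115 with empty vector (log2 fold change 0.93 ± 0.09, limma, adjusted p = 0.0438). This call is lost when only genes above 0 in every library are fitted (limma, adjusted p = 0.156). It is lost as well under quantile scaling (adjusted p = 0.166), median-of-ratios scaling (0.0548), a filter at 5 (0.0650), plain variances (0.0781) and a pseudocount of 0.1 (0.0532). It is also lost without either overexpression library (adjusted p = 0.264 without replicate 1, 0.209 without replicate 2) and without empty vector replicate 3 (0.149) or 4 (0.167). As a check of the myeloma label, 10 of the 11 plasma cell markers listed in the knockdown table were at 1 or above in each of its libraries.

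Knockdown of PHF19 left the abundance of the ER entry and exit genes within a narrow range of the control. No member was called higher and none lower at an adjusted p below 0.05 (limma, 39 tested), where 4.24% of all 10900 genes were called higher and 1.28% lower. At an unadjusted p below 0.05, SSR4 was higher, where 15.3% of all genes were, and SRPRB and SSR1 were lower, where 8.74% of all genes were. The smallest adjusted p (limma) among members was 0.0806, for SRPRB. The log2 fold change lay below 0 for 30 of the 39 members (76.9%), against 45.6% of all genes tested, and above 0 for 9, against 54.4% of all genes. The median was -0.12, against 0.03 for all genes. Without shRNA replicate 1, 24 members lay below 0 and the median was -0.06. Individual values ran from -0.48 to 0.32, and every one of the 39 intervals at 95% lay between -0.79 and 0.72, so a change of 1 on the log2 scale lay outside the interval of each. Summed, the members made up 0.732%, 0.770% and 0.758% of the listed abundance in shRNA libraries, against 0.780%, 0.795% and 0.776% in scramble libraries, with no overlap. Without division by library totals, the sums were 3843, 3966 and 3799 in shRNA libraries, against 4082, 4182 and 3650 in scramble libraries. These sums overlap, so the separation depends on the scale. Groups did not overlap for 1 member on the higher side, SSR4 (18.9% of all genes), and for 6 on the lower side, SRP68, SRPRB, SEC61A2, SSR1, KDELR1 and KDELR2 (13.0% of all genes). In bulk RNA, fewer cells of a kind and less RNA per cell cannot be told apart.

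**Figure D1:**
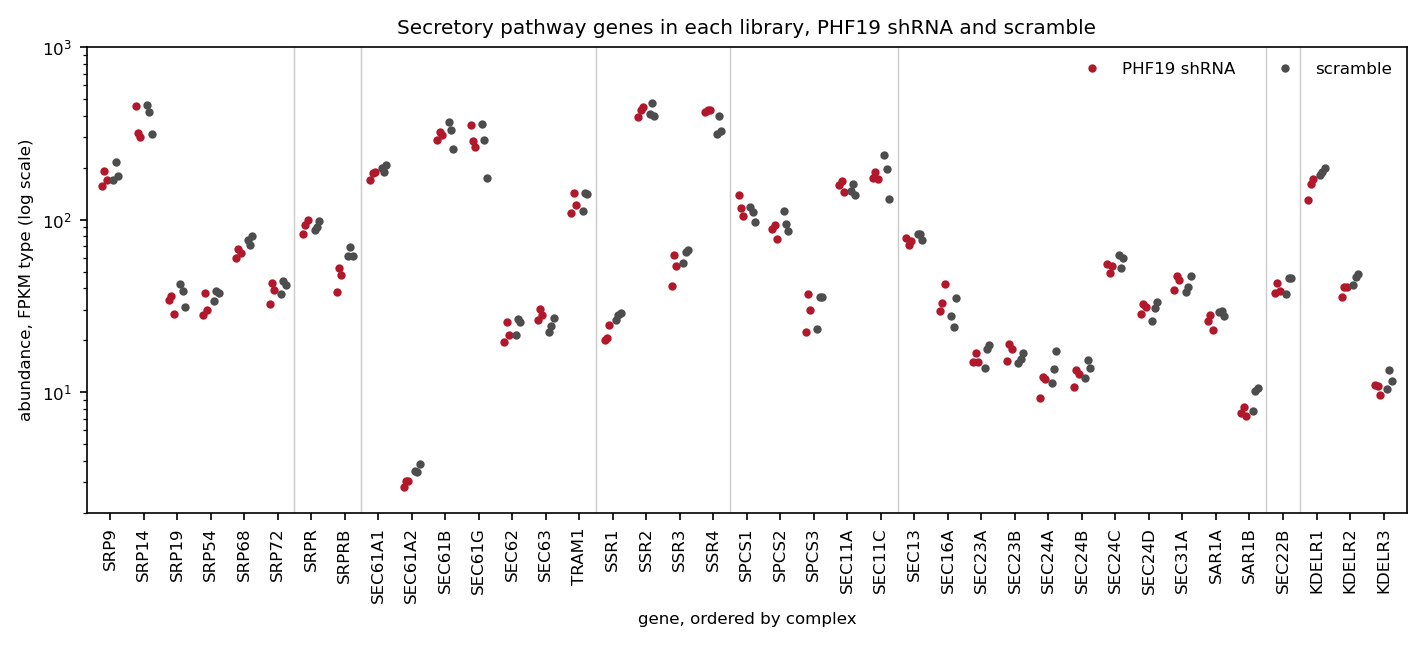
Abundance (FPKM type, log scale) of all 39 genes in each knockdown-table library, with shRNA points left of scramble points and grey lines between complexes. Levels span SEC61A2, at 2.83 to 3.81, to SSR2, at 392 to 476, and within a gene the groups sit close together.

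All 6 SRP protein subunits had a log2 fold change below 0 under knockdown, and none was called. SRP14, which with SRP9 binds the Alu domain that pauses elongation, was the most abundant at 456, 316 and 301 in shRNA libraries, against 462, 422 and 311 in scramble libraries. The groups overlap, as shRNA replicates 1 and 2 both lie above scramble replicate 3. SRP68, the large subunit that holds the particle together with SRP72, stood at 60.1, 68.0 and 63.7 in shRNA libraries, against 75.6, 71.3 and 79.9 in scramble libraries. Every shRNA library of SRP68 was below every scramble library, and the log2 fold change was -0.24 ± 0.11 SE with limma's adjusted p at 0.234. SRP54, the subunit that binds the signal peptide, stood at 28.0, 37.3 and 30.0 in shRNA libraries, against 33.6, 38.4 and 37.7 in scramble libraries, which overlap. SRP19, the assembly factor of the particle, had 34.1, 36.0 and 28.5 in shRNA libraries, against 42.5, 38.7 and 31.3 in scramble libraries, and here too the groups overlap. The class median was -0.17, with a range of -0.24 to -0.10. Within libraries of equal number, which were treated as pairs, all 6 SRP genes were lower with shRNA than with scramble in all 3 pairs. This held for 21 of the 39 members, against 24.2% of all genes, and the opposite for 6 members, against 31.2% of all genes.

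SRPRB, the membrane-anchored subunit of the SRP receptor, had the smallest p of all members under knockdown. It stood at 37.9, 52.8 and 47.9 in shRNA libraries, against 61.1, 69.6 and 61.8 in scramble libraries. All 3 shRNA libraries lay below all 3 scramble libraries, with means of 46.2 ± 7.57 with shRNA and 64.2 ± 4.72 with scramble (SD, n = 3 each). The log2 fold change was -0.48 ± 0.14 (SE), with a 95% interval of -0.79 to -0.16, and did not pass (limma, adjusted p = 0.0806). With the replicate number as a block SRPRB was called lower (limma, adjusted p = 0.0285), 1 of 39 members where the block called 3.68% of all genes lower and 8.20% higher. SRPR, the subunit that meets SRP itself, stood at 82.7, 93.0 and 99.3 in shRNA libraries, against 87.5, 91.0 and 98.2 in scramble libraries. The SRPR groups overlap fully, with a log2 fold change of -0.01 and an interval of -0.28 to 0.26.

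Of the 7 translocon genes, 5 were below 0 and 2 above, with a median of -0.08. SEC61A1, the pore-forming subunit, stood at 169, 185 and 190 in shRNA libraries, against 199, 189 and 207 in scramble libraries, which overlap. The small subunits SEC61B and SEC61G were the most abundant of the class. SEC61G, which clasps the pore, had 353, 287 and 262 in shRNA libraries, against 356, 289 and 175 in scramble libraries. Its single low value, in scramble replicate 3, gives it the widest interval of the class, -0.35 to 0.72. SEC61B had 290, 321 and 311 in shRNA libraries, against 366, 330 and 257 in scramble libraries, with scramble replicate 3 again lowest. SEC63, a channel partner that recruits the chaperone BiP, stood at 26.3, 30.5 and 27.9 in shRNA libraries, against 22.4, 24.0 and 26.8 in scramble libraries. Only the lowest shRNA library of SEC63 falls within the scramble range (log2 fold change 0.20, limma, adjusted p = 0.349). SEC62, another channel partner, and TRAM1, a membrane protein beside the channel, had log2 fold changes of -0.14 and -0.08 with overlapping groups.

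Within the TRAP complex, SSR4 had the highest log2 fold change of all members and SSR1 the lowest after SRPRB. SSR4, the delta subunit, stood at 421, 429 and 432 in shRNA libraries, against 312, 397 and 326 in scramble libraries. Every shRNA library was above every scramble library, with means of 428 ± 5.59 with shRNA and 345 ± 45.4 with scramble (SD, n = 3 each). The log2 fold change was 0.32 ± 0.13 (SE) with an interval of 0.02 to 0.62, and it did not pass (limma, adjusted p = 0.183). SSR1, the alpha subunit, stood at 20.0, 20.5 and 24.6 in shRNA libraries, against 26.3, 28.1 and 28.9 in scramble libraries. All shRNA libraries of SSR1 were below all scramble libraries, with means of 21.7 ± 2.50 with shRNA and 27.8 ± 1.32 with scramble (SD, n = 3 each), and the log2 fold change was -0.35 ± 0.13 SE with limma's adjusted p at 0.128. SSR3, the gamma subunit, had 41.2, 62.0 and 53.5 in shRNA libraries, against 55.9, 65.2 and 66.7 in scramble libraries, where shRNA replicate 2 overlaps (log2 fold change -0.27, limma, adjusted p = 0.326). SSR2, the beta subunit and the most abundant of the complex, overlapped at 392, 433 and 446 in shRNA libraries, against 407, 476 and 399 in scramble libraries. On this length-normalised scale, the abundances of the 4 subunits of 1 complex thus spread from about 20.0 for SSR1 to 476 for SSR2.

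For the signal peptidase the median log2 fold change was -0.03, with 2 genes above 0 and 3 below and no class member whose groups separated. SEC11C and SEC11A encode alternative catalytic subunits. SEC11C stood at 174, 188 and 173 in shRNA libraries, against 236, 196 and 132 in scramble libraries, the shRNA values lying inside the scramble range. SEC11A stood at 158, 168 and 144 in shRNA libraries, against 145, 160 and 139 in scramble libraries, which overlap. SPCS3, an accessory subunit needed for cleavage and the least abundant of the 5, had 22.3, 37.3 and 30.0 in shRNA libraries, against 23.3, 35.4 and 35.6 in scramble libraries. SPCS1 and SPCS2, the other accessory subunits, had log2 fold changes of 0.14 and -0.17.

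The 11 COPII genes had log2 fold changes on both sides of 0, 4 above and 7 below, with a median of -0.10. SEC24A, a cargo-binding subunit of the inner coat, stood at 9.20, 12.3 and 12.0 in shRNA libraries, against 11.2, 13.5 and 17.4 in scramble libraries, which overlap (log2 fold change -0.30, limma, adjusted p = 0.338). SAR1B, a GTPase that starts coat assembly, stood at 7.60, 8.19 and 7.23 in shRNA libraries, against 7.74, 10.1 and 10.5 in scramble libraries. It was the least abundant COPII gene, and only shRNA replicate 2 reached into the scramble range (log2 fold change -0.26, limma, adjusted p = 0.326). SEC16A, the scaffold of ER exit sites, had the highest value of the class at 0.27 (limma, adjusted p = 0.374), with 29.7, 32.9 and 42.1 in shRNA libraries, against 27.5, 23.8 and 35.2 in scramble libraries. SEC13, which forms the outer cage with SEC31A and is also a nuclear pore protein, was the most abundant at 77.8, 71.7 and 75.3 in shRNA libraries, against 82.6, 82.1 and 76.6 in scramble libraries. The remaining 7, SEC23A, SEC23B, SEC24B, SEC24C, SEC24D, SEC31A and SAR1A, had log2 fold changes from -0.17 to 0.13. SEC22B, a SNARE of ER-derived vesicles, had 37.6, 42.8 and 38.7 in shRNA libraries, against 37.1, 45.8 and 45.9 in scramble libraries, which overlap (log2 fold change -0.11).

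All 3 KDEL receptors were below 0 and none was called. KDELR1, the most abundant, stood at 130, 161 and 172 in shRNA libraries, against 181, 189 and 200 in scramble libraries. Its groups did not overlap, with means of 155 ± 21.8 with shRNA and 190 ± 9.14 with scramble (SD, n = 3 each) and the log2 fold change was -0.30 ± 0.14 SE with limma's adjusted p at 0.208. KDELR2 did not overlap either, at 35.8, 40.5 and 40.9 in shRNA libraries, against 42.0, 46.3 and 48.7 in scramble libraries (log2 fold change -0.22, limma, adjusted p = 0.292). KDELR3 overlapped, at 11.1, 10.9 and 9.64 in shRNA libraries, against 10.4, 13.4 and 11.5 in scramble libraries.

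shRNA replicate 1 was the lowest shRNA library for SRPRB, SSR3, KDELR1, SRP68 and SEC24A, among others. It was the highest shRNA library for SRP14, SEC61G, SPCS1, SEC13, SEC24C and KDELR3. Of the 10 plasma cell markers tested, SDC1, IRF4, XBP1, MZB1, CD38 and SLAMF7 were also lowest there among shRNA libraries, while JCHAIN and POU2AF1 were highest there and TNFRSF17 and PRDM1 lay between. JCHAIN, the immunoglobulin J chain gene, had 735, 659 and 573 in shRNA libraries, against 617, 668 and 517 in scramble libraries. XBP1 stood at 214, 442 and 421 in shRNA libraries, against 360, 525 and 475 in scramble libraries, and MZB1, an ER chaperone of plasma cells, at 104, 206 and 210 in shRNA libraries, against 322, 266 and 217 in scramble libraries. The summed level of the plasma cell markers was 1461 to 1878 in shRNA libraries and 1832 to 2049 in scramble libraries. Markers of T cells, myeloid cells and fibroblasts were low. Of 6 T cell markers, 2 were in the table (CD3E and CD8A), with sums of 0 to 1.09 in shRNA libraries and 0.30 to 0.99 in scramble libraries. Of 6 myeloid markers, 4 were, with sums of 0.87 to 1.43 in shRNA libraries and 1.51 to 2.71 in scramble libraries. The fibroblast gene COL1A1, 1 of 5 markers, stood at 0.02 to 0.06 in shRNA libraries and 0.24 to 0.41 in scramble libraries. Of 7 markers of the kidney epithelial line, 4 were in the table, with sums of 8.02 to 9.61 in shRNA libraries and 11.1 to 16.4 in scramble libraries, most of it KRT18, at 4.79 to 5.51 in shRNA libraries and 9.32 to 13.0 in scramble libraries. KRT18 was called lower (log2 fold change -0.99, limma, adjusted p = 0.0137), where 1.28% of all genes were. PAX8 of the same list lay the other way, at 2.26 to 2.35 in shRNA libraries and 1.26 to 1.77 in scramble libraries, while KRT8 overlapped. The part of these differences in the members' values was not tested.

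**Figure D2:**
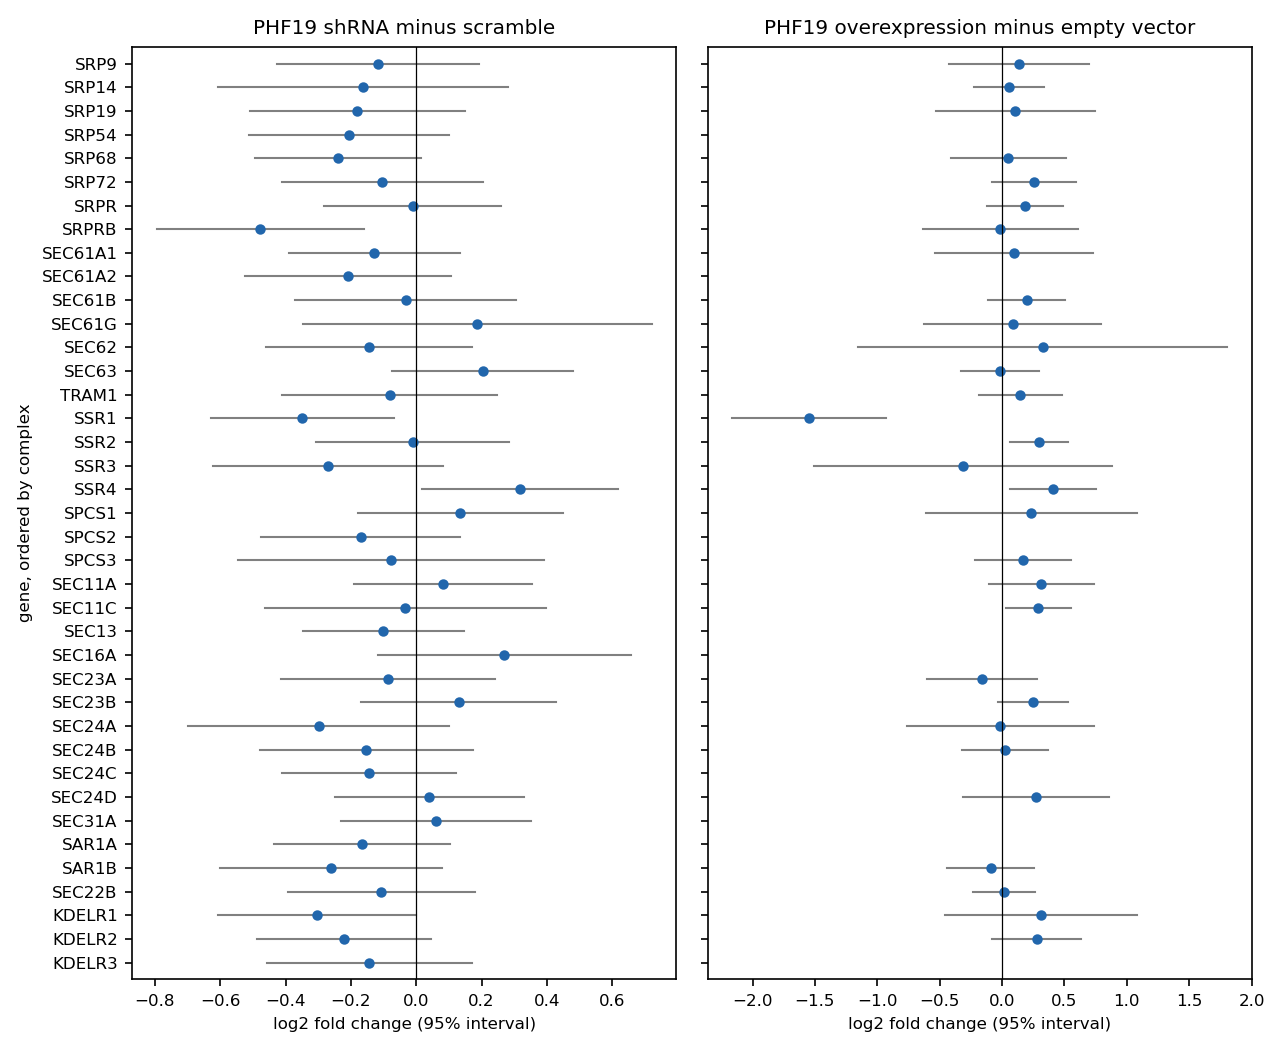
Log2 fold change (point) with its 95% interval (line) for each gene, shRNA minus scramble on the left and overexpression minus empty vector on the right, on different horizontal scales. Rows with no point on the right are the 6 genes listed at 0 in a library and the 3 that table does not hold. SRPRB at -0.48 stands lowest on the left, and SSR1 at -1.54 on the right.

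Overexpression of PHF19 was followed by no called change in a member either. Of the 36 tested, 0 were called higher and 0 lower (limma), where 0.613% of all 10279 genes were called higher and 0.302% lower. At an unadjusted p below 0.05, SSR2, SSR4 and SEC11C were higher, where 7.88% of all genes were, and SSR1 was lower, where 3.65% of all genes were (limma, smallest adjusted p = 0.152). In this table a value of exactly 0 occurred in at least 1 library for 19.2% of genes, and for 6 of the 36 members. SRP54 and SEC31A were listed at 0 in empty vector replicate 4, SPCS2 in replicate 3 and SEC13 in replicate 5, while SEC16A was listed at 0 in overexpression replicate 1 and SAR1A in replicate 2. The other libraries had 35.5 to 39.2 for SRP54, 35.1 to 48.2 for SEC31A, 67.1 to 97.6 for SPCS2, 68.2 to 84.5 for SEC13, 20.1 to 24.5 for SEC16A and 20.6 to 28.8 for SAR1A. No fold is given for these 6. Of the 30 members with no 0, 23 had a log2 fold change above 0 and 7 below, with a median of 0.14 and a range of -1.54 to 0.41, and over all 36 the median was 0.16, against 0.09 for all genes tested. Of all genes, 59.9% were above 0 and 40.1% below. As a share of the listed abundance, the 30 members summed lay lower with overexpression, without overlap. They made up 0.916% and 0.932% in overexpression libraries, against 0.961%, 1.01% and 0.957% in empty vector libraries. On the deposited scale the sums of these 30 lay higher with overexpression, also without overlap. They were 4564 and 4681 in overexpression libraries, against 4095, 4292 and 4068 in empty vector libraries. The direction of the summed difference thus depends on the scale. Under quantile scaling 14 of the 30 were above 0 and 16 below, and the median over all 36 was 0.000587, against -0.04 for all genes, so the balance of directions here depends on the scaling. Groups did not overlap for 11 members on the higher side (23.1% of all genes) and for 2 on the lower side (11.1% of all genes), among them SEC13 and SEC16A with a 0 each.

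**Figure D3:**
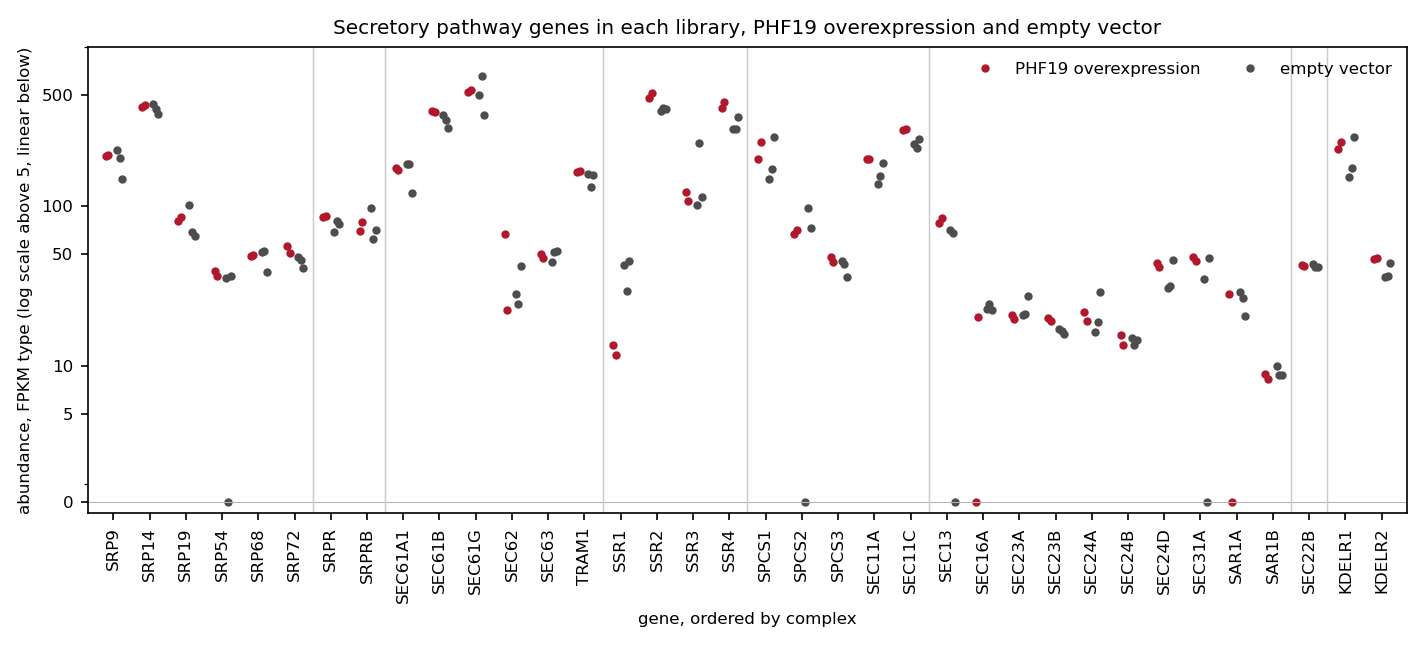
Abundance (FPKM type, log scale above 5 and linear below) of the 36 genes in each overexpression-table library, with overexpression points left of empty vector points. Single points at 0 mark the 6 genes listed at 0 in 1 library, and both SSR1 overexpression points, at 13.5 and 11.7, lie below the empty vector points.

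SSR1 showed the largest difference of any member without a 0. It stood at 13.5 and 11.7 in overexpression libraries, against 42.8, 29.5 and 45.2 in empty vector libraries. Both overexpression libraries were well below all 3 empty vector libraries, with means of 12.6 ± 1.24 with overexpression (SD, n = 2) and 39.2 ± 8.43 with empty vector (SD, n = 3). The log2 fold change was -1.54 ± 0.23 (SE) with a 95% interval of -2.16 to -0.93, and it did not pass over all genes (limma, adjusted p = 0.152). Among the other TRAP subunits, SSR4 stood at 412 and 452 in overexpression libraries, against 305, 307 and 365 in empty vector libraries, without overlap (log2 fold change 0.41 ± 0.13 SE, limma, adjusted p = 0.385). SSR2 had 479 and 517 in overexpression libraries, against 395, 414 and 406 in empty vector libraries, again without overlap (log2 fold change 0.30 ± 0.09 SE, limma, adjusted p = 0.371). SSR3 overlapped, at 122 and 108 in overexpression libraries, against 102, 250 and 114 in empty vector libraries, where empty vector replicate 4 stands far above the rest (log2 fold change -0.31, limma, adjusted p = 0.815). A difference between the subunits was not tested.

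The 4 signal peptidase genes with no 0 were all above 0, with a median of 0.26, and none was called. SEC11C stood at 299 and 306 in overexpression libraries, against 245, 234 and 264 in empty vector libraries, without overlap (log2 fold change 0.29 ± 0.10 SE, limma, adjusted p = 0.398). SEC11A, its alternative, stood at 198 and 197 in overexpression libraries, against 139, 155 and 186 in empty vector libraries, also without overlap (log2 fold change 0.31, limma, adjusted p = 0.525). SPCS3 was least abundant at 48.2 and 45.0 in overexpression libraries, against 45.2, 43.5 and 36.0 in empty vector libraries.

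Among SRP and its receptor, differences were small. SRP72 stood at 56.7 and 51.0 in overexpression libraries, against 48.0, 46.3 and 40.7 in empty vector libraries, and was the only SRP gene whose groups did not overlap (log2 fold change 0.25, limma, adjusted p = 0.524). SRP14 was again the most abundant, at 417 and 435 in overexpression libraries, against 441, 410 and 380 in empty vector libraries. SRPR stood at 85.4 and 86.9 in overexpression libraries, against 69.1, 80.9 and 78.0 in empty vector libraries, without overlap (log2 fold change 0.18, limma, adjusted p = 0.585). SRPRB overlapped, at 70.5 and 79.9 in overexpression libraries, against 98.2, 62.2 and 71.2 in empty vector libraries, with a log2 fold change of -0.01.

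Of the 6 translocon genes in this table, 5 were above 0, with a median of 0.12. SEC61B stood at 399 and 389 in overexpression libraries, against 374, 348 and 311 in empty vector libraries, without overlap (log2 fold change 0.20, limma, adjusted p = 0.564). SEC61G was the most abundant member of all in this table, at 525 and 534 in overexpression libraries, against 501, 661 and 376 in empty vector libraries, which overlap. SEC62 had 66.9 and 22.4 in overexpression libraries, against 28.1, 24.5 and 42.3 in empty vector libraries, so that the 2 overexpression libraries lie on either side of the control range and the interval runs from -1.16 to 1.80. TRAM1 was just separated, at 165 and 166 in overexpression libraries, against 160, 133 and 156 in empty vector libraries.

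Over the 6 COPII genes with no 0 the median was 0.00, with 3 genes on each side of 0. SEC23B, a GTPase-activating subunit of the inner coat, stood at 20.0 and 19.2 in overexpression libraries, against 16.9, 16.5 and 15.8 in empty vector libraries, without overlap (log2 fold change 0.25, limma, adjusted p = 0.474). SAR1B was least abundant at 8.82 and 8.20 in overexpression libraries, against 9.99, 8.75 and 8.69 in empty vector libraries. SEC22B barely varied, at 42.6 and 42.3 in overexpression libraries, against 43.3, 41.4 and 41.5 in empty vector libraries. KDELR2 stood at 46.9 and 47.7 in overexpression libraries, against 36.2, 36.6 and 44.1 in empty vector libraries, without overlap (log2 fold change 0.28, limma, adjusted p = 0.512). KDELR1 overlapped at 228 and 253 in overexpression libraries, against 152, 175 and 272 in empty vector libraries (log2 fold change 0.31, limma, adjusted p = 0.712).

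Some markers differed between these groups too. Summed plasma cell markers were 4386 to 11554 in overexpression libraries and 2554 to 3559 in empty vector libraries, and IGJ, the immunoglobulin J chain gene, made up most of the highest sum. The plasma cell genes TNFRSF17 and MZB1 were listed at 0 in empty vector replicates 3 and 4. The myeloid markers LYZ and S100A8 summed to 0.698 to 30.4 in overexpression libraries and 0 to 0.0572 in empty vector libraries, with replicate 2 highest, while no T cell marker was among the genes listed. Of the kidney epithelial line markers, PAX8 and KRT18 summed to 4.61 to 8.09 in overexpression libraries and 5.83 to 7.38 in empty vector libraries. The fibroblast marker COL1A1 stood at 0.610 to 0.671 in overexpression libraries and 0.672 to 2.57 in empty vector libraries. The part of these in the members' values was not tested.

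The comparisons of shRNA with scramble and of overexpression with empty vector share no library. Of 30 members measured in both with no 0, 17 had values below 0 for knockdown and above 0 for overexpression, and 1 the reverse. The opposite signs thus covered 60% of these members, against 43.5% of 7928 genes chosen the same way. This is on the scale as deposited, where the overexpression signs depend on the scaling. The share also follows from how many members lay on each side of 0 in each comparison, and opposition gene by gene was not tested. A further 6 were above 0 in both and 6 below 0 in both. SSR1 and SSR4 were the members with an unadjusted p below 0.05 in both, 6.67% of the 30 against 3.22% of all genes. These TRAP subunits kept 1 direction, SSR1 lower at -0.35 with shRNA and -1.54 with overexpression, and SSR4 higher at 0.32 with shRNA and 0.41 with overexpression. SRPRB stood at -0.48 with shRNA and -0.01 with overexpression, and KDELR1 at -0.30 with shRNA and 0.31 with overexpression. Whether the effects of knockdown and overexpression differ for any of these genes was not tested, because the tables were normalised separately.

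**Figure D4:**
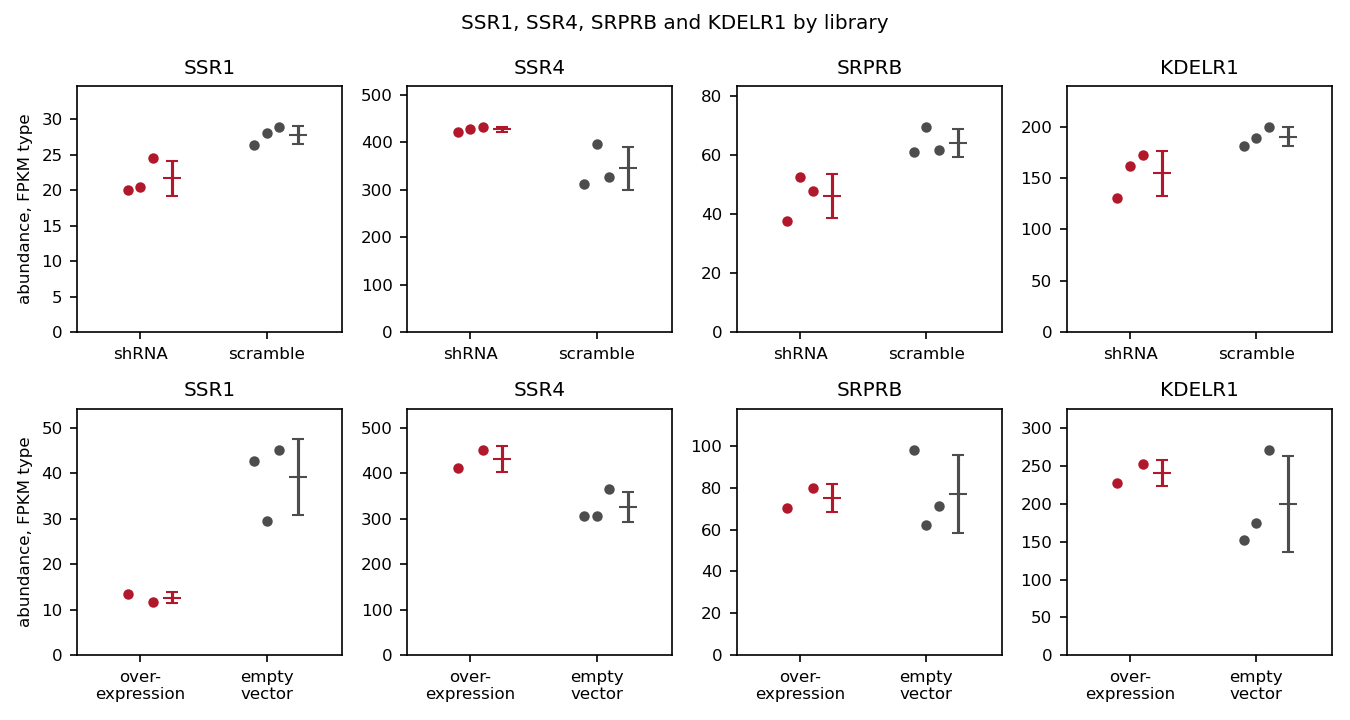
Abundance (FPKM type, axes from 0) of SSR1, SSR4, SRPRB and KDELR1 in each library, with shRNA left of scramble in the upper row and overexpression left of empty vector in the lower row. Points are libraries and bars are means ± SD, and SSR1 is lower and SSR4 higher in the altered cells of both rows with no overlap.

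Paralogs were also set against each other within each library as log2 ratios of their abundances. Some reads of very similar copies can be assigned to either gene, and how alike the copies of each pair are was not measured. SEC61A1 exceeded its paralog SEC61A2 by 54.4-fold to 62.4-fold in the knockdown table. SEC61A2 stood at 2.83, 3.04 and 3.04 in shRNA libraries, against 3.50, 3.46 and 3.81 in scramble libraries, with no overlap (log2 fold change -0.21, limma, adjusted p = 0.400). KDELR1 exceeded KDELR2 by 3.64-fold to 4.32-fold and KDELR3 by 11.8-fold to 17.9-fold. The ratio of SEC24D to SEC24A, coat subunits from the 2 cargo-binding subfamilies, was 1.63, 1.41 and 1.38 on the log2 scale in shRNA libraries, against 1.21, 1.18 and 0.93 in scramble libraries. The groups did not overlap and differed by 0.36, with an exact two-sided permutation p of 0.1, the smallest 3 against 3 can give, and 0.45 after adjustment over 9 pairs. In the overexpression table this ratio was 1.01 and 1.13 in overexpression libraries, against 0.91, 0.75 and 0.67 in empty vector libraries (exact permutation p = 0.2, the smallest possible there, and 0.5 adjusted over 5 pairs). The SEC24D to SEC24A ratio was thus higher without overlap in both comparisons, and it did not pass in either. The ratio of SEC61A2 to SEC61A1 was also apart for knockdown, at -5.90, -5.93 and -5.96 in shRNA libraries, against -5.83, -5.77 and -5.76 in scramble libraries (exact permutation p = 0.1, adjusted p = 0.45). With overexpression the ratio of SEC23B to SEC23A was apart, at -0.06 and -0.04 in overexpression libraries, against -0.30, -0.35 and -0.79 in empty vector libraries (exact permutation p = 0.2, adjusted p = 0.5). For the other pairs the groups overlapped.

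Genes that work beside these members were counted in 5 further lists, of the oligosaccharyltransferase, translocon accessory factors, COPII accessory factors and cargo receptors, the COPI coat, and ER-Golgi tethers and SNAREs. With shRNA, 3 of the 115 genes tested were called higher and 0 lower (limma), beside 4.24% of all genes higher and 1.28% lower, with a median log2 fold change of 0.00. The 12 oligosaccharyltransferase genes had none called and a median of 0.03, and the 26 translocon accessory factors had none called and a median of -0.09. At an unadjusted p below 0.05 (limma), 5 of these 26 were lower (8.74% of all genes) and 0 higher (15.3% of all genes). Groups did not overlap for 8 of the 26 on the lower side (13.0% of all genes) and 2 on the higher side (18.9% of all genes). Of 29 tested COPII accessory genes 1 rose, CTAGE5, which RefSeq now names MIA2 and which with TANGO1 helps export collagen. It stood at 19.9, 16.6 and 17.3 in shRNA libraries, against 7.57, 9.52 and 11.4 in scramble libraries (log2 fold change 0.86, limma, adjusted p = 0.0213). This call is lost without scramble replicate 1 (adjusted p = 0.0814), scramble replicate 2 (0.0891) or shRNA replicate 3 (0.0546).

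Of 17 COPI genes, COPZ2, an alternative zeta subunit of the coat, rose. It stood at 113, 53.7 and 59.9 in shRNA libraries, against 22.6, 24.6 and 22.6 in scramble libraries, with shRNA replicate 1 far above the others (log2 fold change 1.58 ± 0.24 SE, limma, adjusted p = 0.0137). The COPZ2 call is lost without any 1 of the scramble libraries (adjusted p = 0.0584 without replicate 1, 0.0582 without replicate 2, 0.0511 without replicate 3). Of 31 tethers and SNAREs, TRAPPC6A, a subunit of the TRAPP tether, rose. It stood at 83.7, 58.1 and 52.3 in shRNA libraries, against 26.1, 26.0 and 21.0 in scramble libraries (log2 fold change 1.35 ± 0.18 SE, limma, adjusted p = 0.00645), a call that held with each library left out. TRAM2, a paralog of TRAM1, stood at 10.6, 22.5 and 26.4 in shRNA libraries, against 32.8, 32.3 and 42.2 in scramble libraries (log2 fold change -0.90, limma, adjusted p = 0.0997, or 0.0341 with the replicate block). SEC31B and SEC16B, paralogs of the members SEC31A and SEC16A, had log2 fold changes of 0.49 and 0.61 that did not pass (limma, adjusted p = 0.0793 and 0.0797).

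With overexpression, 0 of 101 genes of these lists were called higher and 1 lower (limma), beside 0.613% of all genes higher and 0.302% lower, with a median of 0.15. The called gene was EMC3, a subunit of a membrane insertase, listed at 0 in both overexpression libraries, against 45.5, 43.0 and 40.8 in empty vector libraries (limma, adjusted p = 0.000625). Its call rests on those zeros, and the labels do not say what a 0 stands for. EMC3 was not in the fit of genes above 0 in every library, which called 0 of these genes. In the knockdown table EMC3 stood at 26.8, 29.5 and 22.4 in shRNA libraries, against 34.8, 30.8 and 32.6 in scramble libraries. The groups did not overlap there (log2 fold change -0.32, limma, adjusted p = 0.180). KRTCAP2, an oligosaccharyltransferase subunit, stood at 366 and 424 in overexpression libraries, against 219, 208 and 251 in empty vector libraries (log2 fold change 0.81, limma, adjusted p = 0.189). ERGIC3, a cargo receptor, had 138 and 135 in overexpression libraries, against 77.0, 87.7 and 89.7 in empty vector libraries (log2 fold change 0.68, limma, adjusted p = 0.184). Neither of these passed, although the groups of both were apart.

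Transcript length moved with the libraries. Over 9930 genes of the knockdown table, the deviation of scramble replicate 3 from its group mean correlated with the length of the longest coding transcript (GENCODE v29) at a Spearman rho of 0.567, and that of scramble replicates 1 and 2 at -0.298 and -0.301. Among the 39 members the values were 0.664, -0.506 and -0.287, and for shRNA replicates 1 to 3 they were -0.300, 0.236 and 0.224. Over all genes the shRNA values were -0.0684, -0.0377 and 0.154. The short messages SEC61B, SEC61G and SRP14, of 587, 732 and 1077 bases, were lowest in scramble replicate 3 among scramble libraries. The knockdown log2 fold change itself correlated with length at -0.0771 over the members and 0.0943 over all genes. In the overexpression table the log2 fold change correlated at -0.434 over 30 members and -0.311 over 7665 genes, and SSR1, at 9669 bases, is the member with the longest transcript. The deviation of overexpression replicate 1 correlated with length at 0.693 over these members and 0.306 over these genes. Replicate 2 had the same values with the opposite sign, which 2 libraries around their mean must give. These correlations are across genes, which share their libraries, and the part of length in the members' values was not tested.

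**Figure D5:**
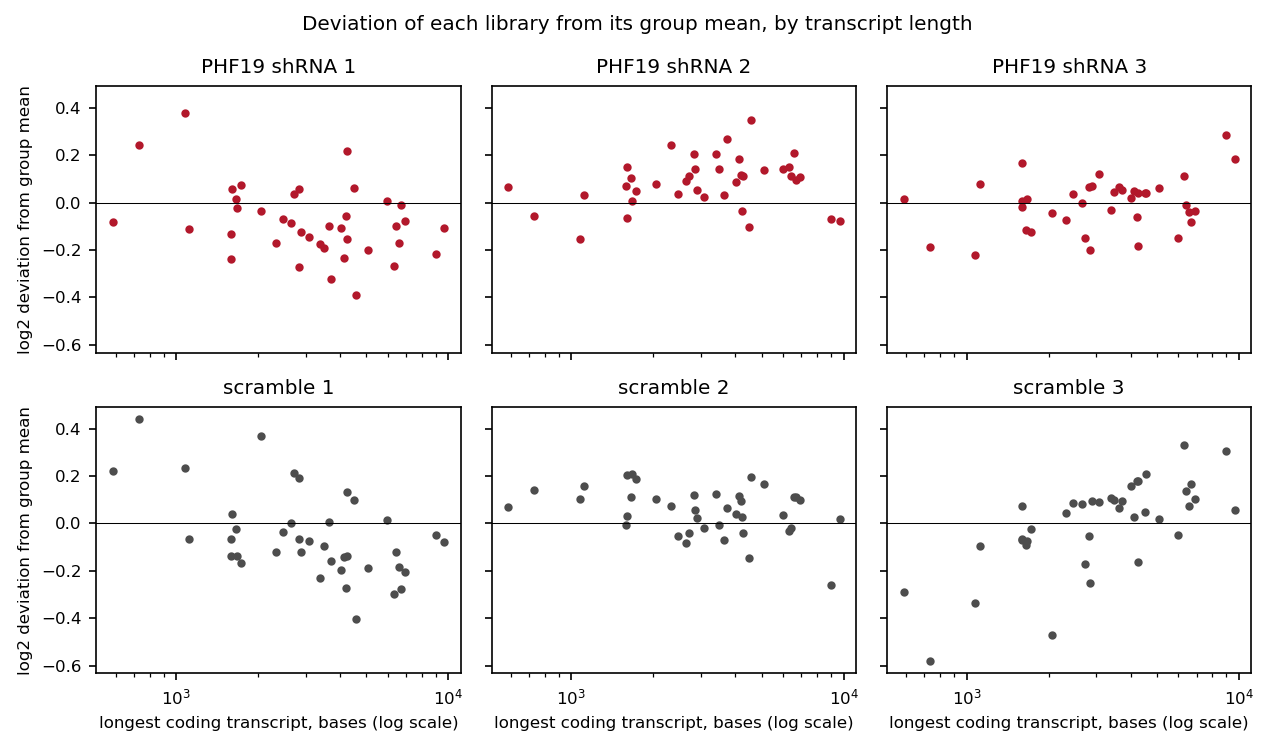
Log2 deviation of each gene from its group mean against the longest coding transcript in bases (log scale), 1 panel per library of the knockdown table and 1 point for each of the 39 genes. Short transcripts sit high in scramble 1 and low in scramble 3, with rho of -0.506 and 0.664.

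The authors' deposited table gives a p-value per gene from a test it does not name. In the authors' deposited table for knockdown it was below 0.05 for 34 of the 39 members, where this held for 61.2% of all 14458 genes, the exceptions being SRPR, SEC61A2, SSR2, SEC24D and KDELR3. For SRPRB the authors' deposited table gives 2.28e-59. In the authors' deposited table for overexpression it was below 0.05 for 1 of the 36 members, SSR4 at 0.0318, where this held for 12.9% of genes, and for SSR1 it was 0.832.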

How the data were processed

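The 2 tables hold abundances recorded here as FPKM. The authors deposited them normalised for length and depth under headers without a unit, so RPKM or TPM cannot be told apart from FPKM. Per the submitters' processing notes, TopHat (version not given) and hg19 were used. No quantifier or gene filter is stated. Per the file headers, each table also holds the authors' p-value per gene. With no counts, depth and counting error are unknown, and the number of libraries limits the precision. Columns without a sample numbered 0.

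Each table was fitted alone with limma-trend and robust variances (limma 3.58.1, R 4.3.3) on log2(value + 1), two-sided, adjusted by Benjamini-Hochberg over all genes tested, with a threshold of 0.05. A gene was tested if it reached 1 in a number of libraries equal to the size of the smaller group. Fold changes on this scale understate the change of low genes. The fits were also run on simulated data with independent normal noise of the same spread for every gene. That noise held no pairing of libraries, no trend with length and no single zeros among high values, so the run does not cover those. Python 3.11.15 with pandas 2.3.3, scipy 1.17.1 and matplotlib 3.10.9 served for the rest, including exact permutation tests over samples.

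Members and lists were chosen with earlier results of these data known. All members are accounted for by class. Values per library are given for members called, for the 10 with the smallest p in each comparison, and for the highest and lowest of each class, besides up to 4 genes of each neighbouring list. Lengths, and signs within numbered pairs, were looked at after the data were seen, and SRPRA was matched to SRPR by RefSeq synonyms.

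Scramble and shRNA libraries share the numbers 1 to 3. Across genes, deviations from the group mean correlated at 0.341, 0.270 and 0.273 between libraries of equal number and at -0.277 to 0.0936 between others, so the numbers were treated as pairing the libraries, from the data and not from a label. The reported fit has no block, and the fit with the replicate block is given where it changes a call. Other alternatives were quantile and median-of-ratios scaling, no filter or one at 5, pseudocounts of 0.1 and 0.5, plain variances, library weights, each library left out, and for overexpression a fit of genes above 0 in every library.

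Promoter sequences are RefSeq's (GRCh38.p14), another build than the tables'.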

Additional observations from a re-analysis of the deposited data

How the results depend on the processing

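Member counts stayed at 0 in both directions and both comparisons under quantile and median-of-ratios scaling, both filter settings, both pseudocounts and plain variances. For shRNA against scramble, the replicate block called 1 member lower (SRPRB) and changed no other member's call, and library weights called 1 higher (SEC16A) and 4 lower (SRP14, SRPRB, SAR1B and KDELR3), where they called 18.4% of all genes higher and 10.6% lower. No member was called with a library left out. For overexpression, library weights called 6 higher (SSR2, SSR4, SEC11A, SEC11C, SEC24D and KDELR2) and 1 lower (SSR1), where 12.0% and 4.84% of all genes were called, and the count lower ran from 0 to 1 with a library left out, by SAR1A or SEC16A, each then listed at 0 in the lone overexpression library, which is assumed to vary like the others. With only genes above 0 in every library, 0 of 8665 genes were called by limma. The members' median log2 fold change of 0.16 became 0.000587 under quantile scaling, which also moved the median of all genes from 0.09 to -0.04; the knockdown median stayed between -0.17 and -0.06. Over all genes, 601 knockdown calls became 1295 with the block, 3161 with library weights, 269 without a filter, and 54 to 629 with a library left out. Quantile scaling gave 377 higher and 206 lower, against 462 and 139. The 94 overexpression calls became 36 with a filter at 5, 61 with a pseudocount of 0.1 and 350 without empty vector replicate 5.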
